A study of Mus musculus with 2 samples.

Results

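Somatostatin and the genes that accompany it in pancreatic delta cells were followed through single-cell counts of mouse islet cells. The 9 genes were Sst, Hhex, Rbp4, Ghsr, Ptprz1, Spock3, Sstr3, Arg1 and Fam159b, taken by symbol from the 46983 genes counted, and each symbol matched 1 entry. Islet cells positive for tdTomato, a red fluorescent reporter, had been sorted from mice at postnatal day 9 and sequenced with a droplet 3' kit that counts unique molecular identifiers (UMIs). In the Isl1CKO library the mice carried Neurod1 Cre/+ and Isl1f/f, with 2 floxed Isl1 alleles. In the control library they carried Neurod1 Cre/+ and Isl1f/+, with 1 floxed allele, so Cre was present in the controls too. Neurod1 is active across the endocrine pancreas, and Isl1 encodes a LIM-homeodomain factor of islet cells. Each library pooled 6 animals and each genotype had 1 library, so no difference has a replicate check. Actinomycin D, which blocks transcription, was present while the tissue of both genotypes was dissociated.

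Delta cells are the islet's source of somatostatin, a peptide that acts on neighbouring alpha and beta cells through Gi-coupled receptors and lowers the release of glucagon and insulin. In mice the homeodomain factor Hhex is needed for delta-cell differentiation. Delta cells carry the ghrelin receptor, through which ghrelin stimulates somatostatin release. Because a lower total in a mixed sample can come from fewer cells of a type or from less RNA per cell, the genes were described over whole libraries and then within classes of cell.

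The Isl1CKO library held 3020 cells and 78068592 UMIs, with a median of 24906.5 UMIs per cell. The control library held 2504 called cells and 72548173 UMIs, with a median of 22638.5. Each cell was classed by its dominant hormone, with Sst at 5% or more of its UMIs, Gcg at 10%, Ins1 plus Ins2 at 20% or Ppy at 5%. In the Isl1CKO library, cells without a dominant hormone but with 3 or more UMIs of Fev, which encodes an ETS factor of endocrine progenitors and serotonergic cells, formed a further class. In the control library 237 cells had 3 or more Fev UMIs and stayed in their other classes. Of these, 68 were among the 257 control cells without a dominant hormone. Levels are given as UMIs scaled to the class or library total, in the usual CPM unit, with exact 95% intervals for counting error only. Isl1 itself was counted at 461 CPM in the Isl1CKO library and 253 CPM in the control library. Which exon the floxed allele loses is not in the labels, and a 3' tag outside the deleted part checks nothing.

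The Sst promoter is shown because Sst had the lowest ratio of the 9 genes between genotypes, and the Hhex promoter because Hhex encodes the delta-cell regulator. Sst lies on chromosome 16 at 23889573 to 23890958 on the minus strand and Hhex on chromosome 19 at 37434810 to 37440731 on the plus strand, both protein-coding (GENCODE, GRCm38). Each sequence holds the 250 bases before the RefSeq start (GRCm38.p6), Sst from chr16:23890845-23891094 and Hhex from chr19:37434591-37434840. GENCODE places the gene's start further upstream, so that 114 bases of the Sst window and 31 of the Hhex window fall inside the annotated gene. Capitals mark matches, on either strand, to TGACGTCA, the cyclic AMP response element, and to CTAATNG, a motif with the TAAT core that homeodomain proteins bind; these 2 motifs did not overlap.
Sst: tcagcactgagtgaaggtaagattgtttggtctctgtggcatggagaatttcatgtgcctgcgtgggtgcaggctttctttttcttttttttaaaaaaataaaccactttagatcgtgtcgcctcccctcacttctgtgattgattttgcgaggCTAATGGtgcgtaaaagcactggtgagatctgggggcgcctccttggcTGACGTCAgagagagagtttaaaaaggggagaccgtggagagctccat
Hhex: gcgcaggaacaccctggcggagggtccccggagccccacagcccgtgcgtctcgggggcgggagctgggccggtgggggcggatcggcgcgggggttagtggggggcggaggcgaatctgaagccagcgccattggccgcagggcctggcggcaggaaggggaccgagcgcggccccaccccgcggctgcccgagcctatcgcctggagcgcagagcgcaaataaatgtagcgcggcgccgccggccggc
In Sst the response element began 48 bases before the start and the TAAT motif 96 bases before it. Of 32851 mouse promoter windows of this length, 1.55% held the response element and 5.07% the TAAT motif. RefSeq promoters were matched for 8 of the 9 genes, in 11 windows, and 1 gene, Sst, held either motif. The match is a description of the letters and not of binding.

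Sst transcripts were all but missing from the Isl1CKO library and abundant in the control. Over all called cells Sst stood at 125 CPM in the Isl1CKO library (123 to 128) and at 15083 CPM in the control library (15054.5 to 15111). The ratio was −7.49 on the log2 scale relative to the median gene (−7.52 to −7.46). Cells with Sst as dominant hormone numbered 6 of 3020 in the Isl1CKO library, a share of 0.199% (0.0729% to 0.432%), and 490 of 2504 in the control library, a share of 19.6% (18.0% to 21.2%). Counting every cell that passed the Sst threshold, whatever its dominant hormone, gave 6 Isl1CKO cells and 539 control cells. No Sst UMI at all was found in 2902 Isl1CKO cells (96.1%), against 161 control cells (6.43%).

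Few Isl1CKO cells lay near the threshold, and few lay above it. Between 4% and 5% of Sst lay 2 Isl1CKO cells and 23 control cells, and between 5% and 6% lay 1 Isl1CKO cell and 30 control cells. Between 1% and 5% lay 5 Isl1CKO cells and 88 control cells, beside 6 Isl1CKO cells and 539 control cells at 5% or more. Set against the cells above it, the threshold thus left out a larger part in the Isl1CKO library.

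**Figure D1:**
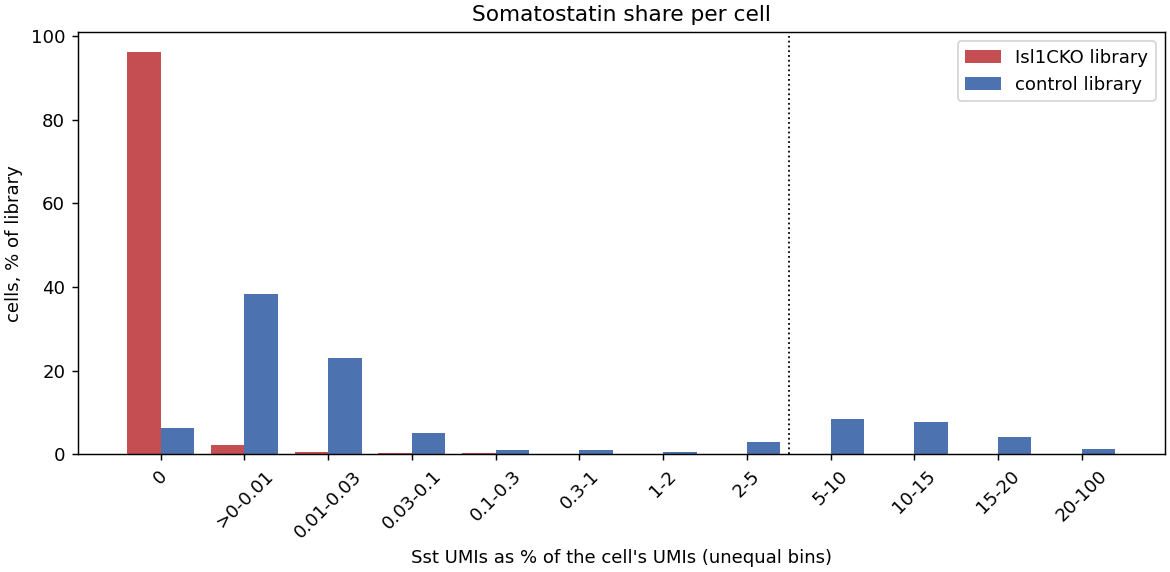
Share of each cell's UMIs that are Sst (x axis, in percent, unequal bins) against the percent of the library's cells (y axis), Isl1CKO bars left of control bars, 1 library each; the dotted line is the 5% threshold. Of Isl1CKO cells 96.1% have no Sst UMI, while 539 control cells lie right of the line.

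The low Sst level of the other control cells has to be read with the RNA that floats free in a droplet library. An Sst UMI was found in 92.0% of the control cells outside the Sst-dominant class, and in 79.5% of the 39 control cells marked by collagen genes, which should not make somatostatin. In the Isl1CKO library 3.72% of cells outside the Sst-dominant class had one, and 0 of 21 collagen-marked cells did, which by a limit of 3 cells allows a share of up to 14.3%. The near-empty control droplets held Sst at 15993 CPM. Presence of an Sst UMI in a control cell was therefore not read as expression.

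Hhex, Ghsr, Arg1, Fam159b, Ptprz1 and Spock3 were lower in the Isl1CKO library together with Sst. Of the 9 genes, 7 were at least 2-fold lower relative to the median gene, against 6.82% of the 14420 genes compared, and 0 were at least 2-fold higher, against 5.21%. The median of the 9 relative log2 ratios was −4.90, and that of all compared genes is 0 by construction. The median gene itself was 0.58 higher on the log2 scale in the Isl1CKO library, where hormones take fewer of the UMIs.

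Hhex had 924 UMIs (11.8 CPM) in the Isl1CKO library and 4603 UMIs (63.4 CPM) in the control library, a relative log2 ratio of −3.00 (−3.10 to −2.90). Ghsr, the ghrelin receptor gene, had 5 UMIs in the Isl1CKO library and 315 in the control, a ratio of −6.66 (−8.29 to −5.42). Ptprz1, a receptor-type tyrosine phosphatase that binds pleiotrophin, had 64 UMIs in the Isl1CKO library and 1306 in the control (−5.04). These 3 genes were lower by very different amounts, and the intervals of Hhex and Ghsr do not overlap.

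Spock3, which encodes a secreted testican proteoglycan, had 31 UMIs in the Isl1CKO library and 689 in the control (−5.16). Arg1, the cytosolic arginase of the urea cycle, was 6.49 CPM in the Isl1CKO library and 130 CPM in the control library (−4.90). Fam159b, listed as Shisal2b in GENCODE and coding for a protein of the Shisa-like family, was 39.5 CPM in the Isl1CKO library and 170 CPM in the control library (−2.69).

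Rbp4 and Sstr3 did not pass the size rule. Rbp4, which encodes the plasma retinol carrier, was 1759 CPM in the Isl1CKO library and 1945 CPM in the control, a relative ratio of −0.72. Sstr3, a somatostatin receptor gene, was 19.1 CPM in the Isl1CKO library and 13.6 CPM in the control, a ratio of −0.085 relative to the median gene (−0.20 to 0.031) that turns to 0.49 without that reference. With every cell weighted equally in place of every UMI, Rbp4 lay at −1.29, and with cells thinned to 4000 UMIs at −1.34, past a 2-fold ratio in both.

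Of the Isl1CKO library's remaining transcripts, most of Sst lay in Sst-dominant cells, a class cut by Sst itself. So did most of Ghsr, on 5 UMIs in all, while most UMIs of each other gene lay elsewhere. The 6 Sst-dominant cells held 62.0% of the Isl1CKO library's Sst UMIs and 4 of its 5 Ghsr UMIs. They held 3.57% of its Hhex UMIs, 2.85% of its Fam159b UMIs and 0.355% of its Rbp4 UMIs. Their part of the library's Spock3 UMIs was 9.68%, of Arg1 6.11%, of Sstr3 0.0670% and of Ptprz1 0%. In the control library the Sst-dominant class held 87.5% of Sst, 79.4% of Ghsr, 71.4% of Hhex, 63.0% of Fam159b and 49.2% of Rbp4 UMIs. It also held 70.2% of Spock3, 62.0% of Arg1, 19.7% of Sstr3 and 72.7% of Ptprz1 UMIs.

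**Figure D2:**
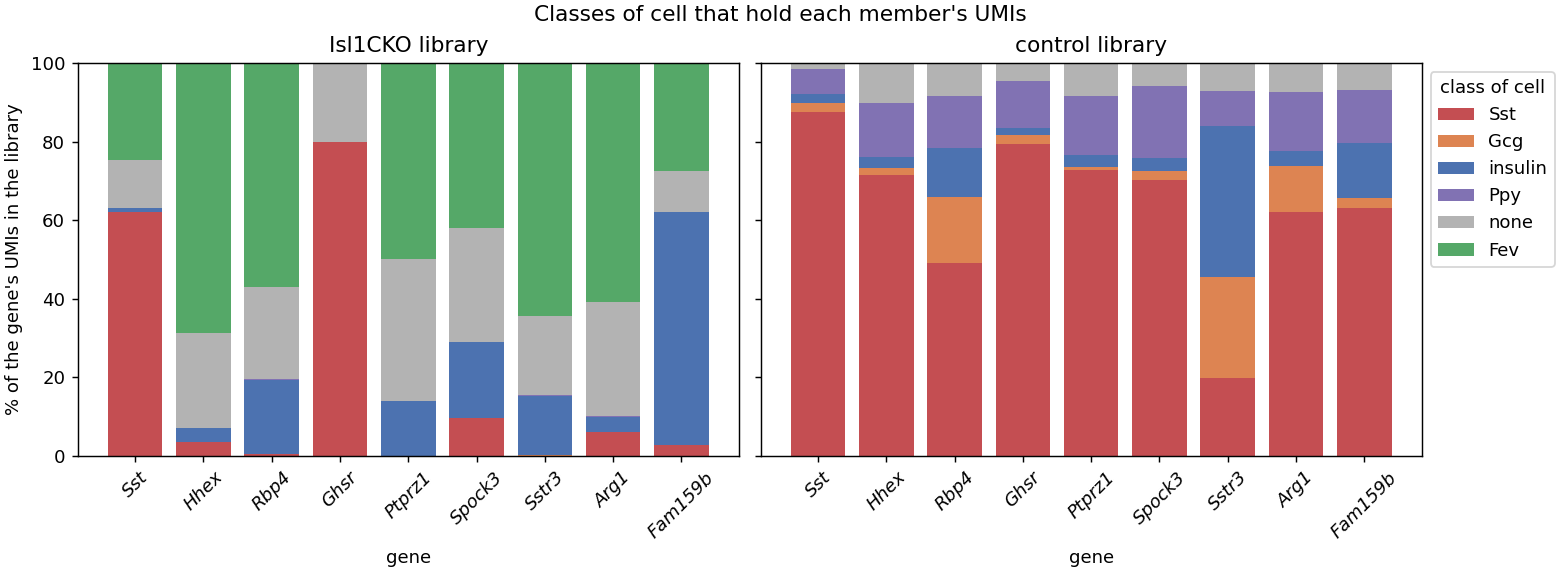
Percent of each gene's UMIs (y axis) that lie in each class of cell, for the 9 genes (x axis), Isl1CKO library left and control library right. The Sst-dominant class holds 71.4% of Hhex in the control and 3.57% in the Isl1CKO library, where Fev-positive cells hold 68.7%.

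Hhex was counted at a low level in Isl1CKO cells without a dominant hormone. It stood at 13.4 CPM in the 1889 Fev-positive cells (12.3 to 14.5), with a UMI in 18.4% of them. In the 738 cells with no dominant hormone and under 3 Fev UMIs it was 14.2 CPM, with a UMI in 15.3%. Thinned to 4000 UMIs per cell, the share was 6.46% of Fev-positive cells and 5.15% of the cells with fewer Fev UMIs. The cells of these classes that held no Sst UMI had Hhex at 12.0 CPM, both in the 1825 Fev-positive and in the 704 other cells. Isl1CKO insulin-dominant cells had 2.18 CPM, and 0 of 21 collagen-marked Isl1CKO cells held a Hhex UMI, where 3 cells would be 14.3%. For comparison, Hhex was 6.36 CPM in control Gcg-dominant cells, with a UMI in 4.43% of them, or 1.81% after thinning. In control insulin-dominant cells it was 3.06 CPM, with a UMI in 4.68%, or 0.780% after thinning. With 3 or more Hhex UMIs there were 100 Isl1CKO cells, of which 76 had no Sst UMI, and 583 control cells, of which 122 lay below the Sst threshold.

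Arg1 was also counted in Fev-positive Isl1CKO cells, at 6.48 CPM in 10.1% of cells. Ghsr had 0 UMIs in the 1889 Fev-positive and 383 insulin-dominant Isl1CKO cells, which by a limit of 3 UMIs allows up to 0.0632 CPM in the Fev-positive class. Ptprz1 had 32 UMIs and Spock3 13 UMIs in the Fev-positive class.

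The 2427 Sst UMIs of the Fev-positive class came from 64 cells, and 1793 of them from the 2 highest. Those 2 cells held Sst at 4.56% and 2.08% of their UMIs, the first just below the threshold, with 3 and 10 Hhex UMIs. The second was deep, at 55845 UMIs against a class median of 24031. It also held 304 Gcg UMIs, 5701 of the transthyretin gene Ttr and 1763 of the granin gene Chgb. The first held 0 Gcg, 16 Ttr and 171 Chgb UMIs. What the mixture in the second stems from was not tested. A cell without a hormone class came closest to the threshold, at 4.67% Sst, with 12 Hhex UMIs, 5 Ptprz1 UMIs and 18 Fam159b UMIs.

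The 6 Isl1CKO cells above the Sst threshold carried 8 of the 9 delta-cell genes. Their summed Hhex and Fam159b had intervals that overlap those of the control class. Summed Sst, Rbp4 and Arg1 were lower by less than 2-fold, and Ptprz1 had 0 UMIs. The 6 cells had 5.34% to 11.1% of their UMIs from Sst and 5403 to 14724 UMIs each. Their summed level of Sst was 85850.5 CPM, against 128841 CPM in the 490 control cells, or 66.6% of it. Hhex was 467 CPM in the 6 Isl1CKO cells (321 to 656) and 442 CPM in the control cells (427 to 457), with 2 to 10 UMIs in each of the 6. Fam159b was 1245 CPM in the Isl1CKO cells (999 to 1534) and 1048 CPM in the control cells.

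Rbp4 was 6890 CPM in the 6 Isl1CKO cells and 9337 CPM in the control cells, and Arg1 was 439 CPM in the Isl1CKO cells (298 to 622.5) and 785 CPM in the control cells (765 to 805). For Rbp4 and Arg1 the intervals, for counting error only, do not overlap, and the Isl1CKO sums were lower, short of a 2-fold ratio. Single Isl1CKO cells ran from 3234.5 to 12011 CPM of Rbp4 and from 149 to 924 CPM of Arg1. The median control cell, at 8746 CPM of Rbp4 and 753 CPM of Arg1, lay within these ranges. Ghsr had 4 UMIs (56.6 CPM, 15.4 to 145), against 33.6 CPM in the control cells, and Spock3 had 3 UMIs (42.4 CPM, 8.75 to 124), against 65.1 CPM in the control cells. Sstr3 had 1 UMI in the 6 Isl1CKO cells, against 26.1 CPM in the control cells. Ptprz1 had 0 UMIs in the 6 Isl1CKO cells, which by the same limit allows up to 42.4 CPM, against 128 CPM in the control cells (120 to 136).

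After thinning to 4000 UMIs, a cell of this class held a UMI of a median of 4 of the 8 genes other than Sst in the Isl1CKO library (4 to 5) and of 4 in the control library (2 to 7). No other class had a median above 1.5. Of these cells 1 of 6 in the Isl1CKO library passed the Ppy threshold as well. Pyy, the peptide YY gene, had 451 to 1533 UMIs per cell in the 6, and Gcg had 0 or 1 UMI. The gamma list of Ppy, Pyy and Fxyd2 summed to 110129 CPM in the Isl1CKO cells, against 145994 CPM in the control class. None of the 7 mesenchymal, 5 endothelial, 5 immune or 5 cycling markers had a UMI in the 6 cells, and the acinar list had 2 of 7 genes detected. The ductal list had 5 of 6 detected, at a summed 439 CPM, against 335 CPM in the control class, led in both by the keratin gene Krt7. The beta list had 5 of 8 detected at 12139 CPM in the Isl1CKO cells, against 28207 CPM in the control class, with Mafa, Ucn3 and G6pc2 at 0, and the alpha list 3 of 7 at 1146 CPM, against 1947 CPM in the control class. The part of these other markers in the levels was not tested.

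**Figure D3:**
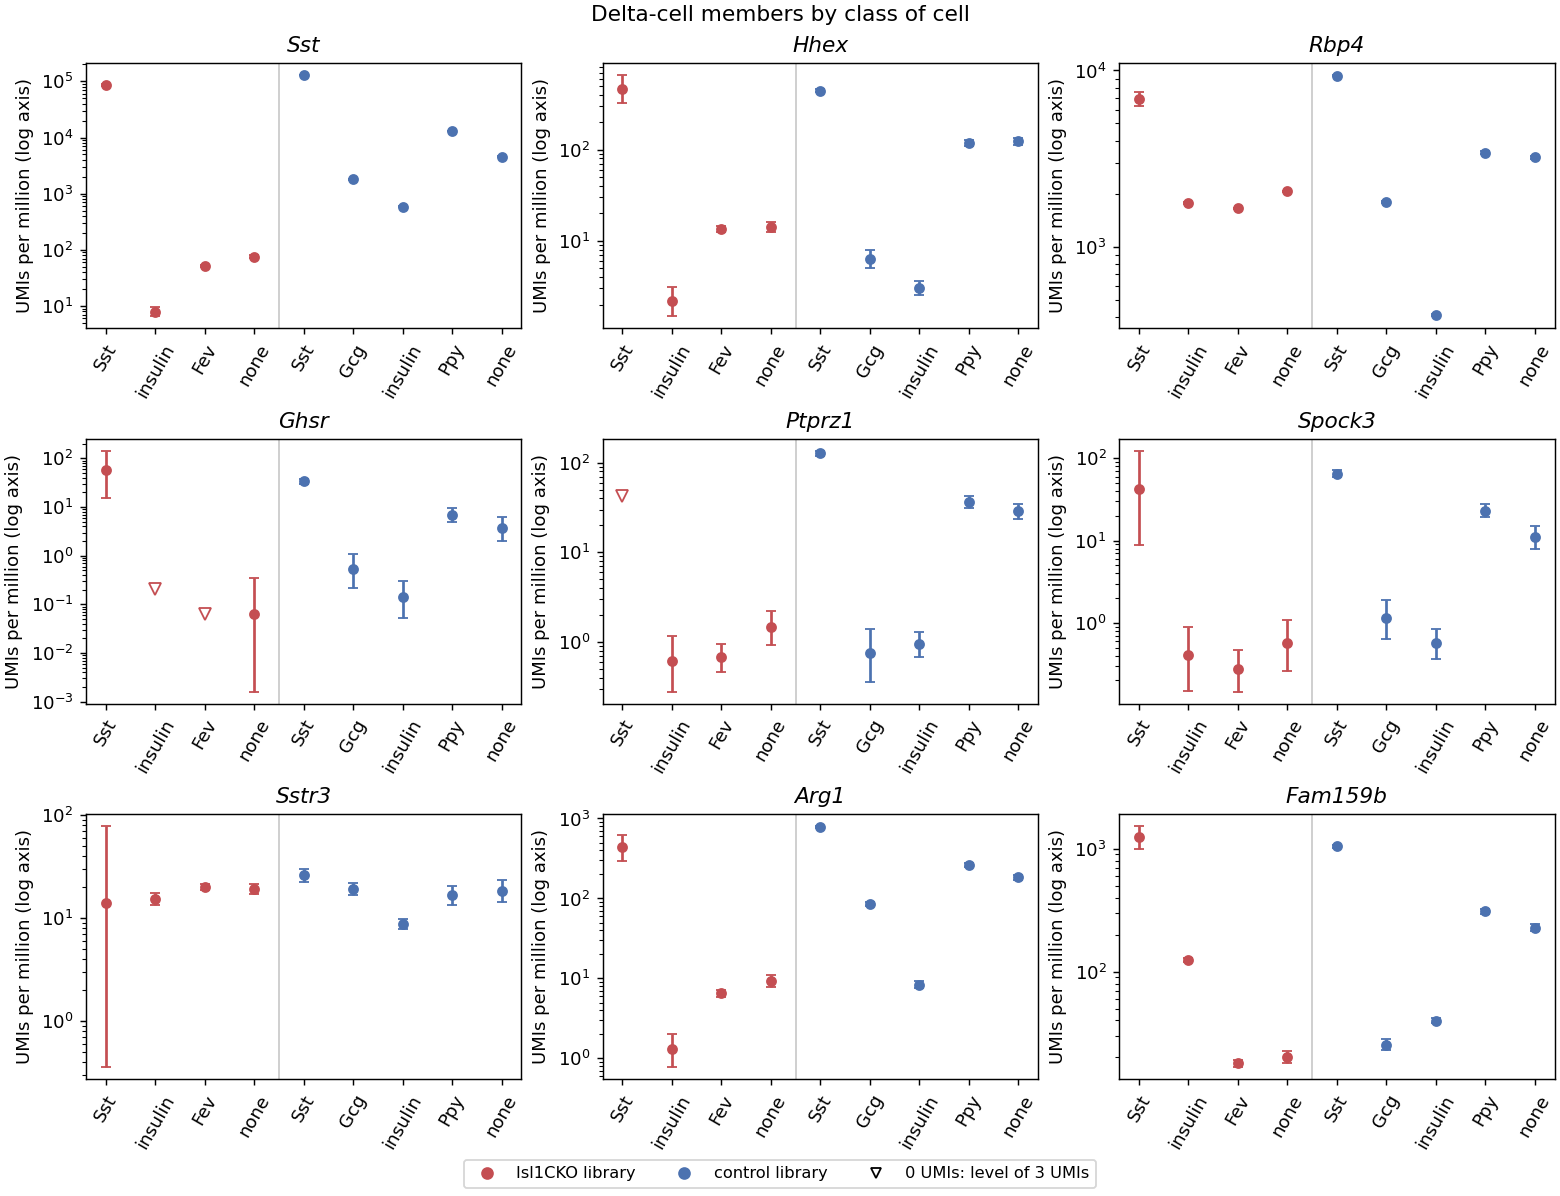
CPM (log y axis) of each gene by class of cell (x axis), Isl1CKO classes left of the grey line and control classes right of it; bars are exact 95% Poisson intervals of counting error and open triangles mark classes with 0 UMIs at the level of 3 UMIs. The Sst-dominant class has the highest level of Sst, Hhex, Rbp4, Ghsr, Spock3, Arg1 and Fam159b of the classes shown from each library. In the Isl1CKO class Ghsr rests on 4 UMIs and Spock3 on 3 UMIs. Sstr3 runs from 8.81 to 26.1 CPM over all classes shown.

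Within the control library the Sst-dominant class stood apart in 8 of the 9 genes, Sst itself by the rule that made the class. Against all other control cells, 8 were at least 2-fold higher relative to the median gene, beside 5.05% of 10488 genes compared, and 0 were lower, beside 10.7%. The median of the 9 relative log2 ratios was 3.69. The median gene was 0.68 higher in the Sst-dominant class on the log2 scale. The same 8 genes passed against Gcg-dominant cells (background 7.38%), insulin-dominant cells (9.28%) and Ppy-dominant cells (3.20%).

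Ghsr had rank 2 of the 10488 genes by the bound of its ratio nearest to 0, at 33.6 CPM in Sst-dominant cells and 0.998 CPM in the other control cells, a relative log2 ratio of 4.39. Hhex was 442 CPM in Sst-dominant cells and 20.2 CPM in the others (3.77). Ptprz1 was 128 CPM in Sst-dominant cells and 5.47 CPM in the others (3.87). Spock3 was 65.1 CPM in Sst-dominant cells and 3.15 CPM in the others (3.69).

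Fam159b was 1048 CPM in Sst-dominant cells and 70.2 CPM in the others (3.22), and Arg1 was 785 CPM in Sst-dominant cells and 54.8 CPM in the others (3.16). Rbp4 was 9337 CPM in Sst-dominant cells and 1100 CPM in the others (2.41). Sstr3, at 26.1 CPM in Sst-dominant cells and 12.1 CPM in the others, had a ratio of 0.42 (0.19 to 0.65) and did not pass. The first 10 genes by this rank were Sst, Ghsr, Ly6h, Dscam, Ptprz1, Hhex, Ehf, Bmp3, Sftpd and Cbln4. That list leaves out unnamed, mitochondrial, ribosomal, haemoglobin and Y-linked genes, Xist and Tsix.

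The genes differed in how closely they kept to the class. Median depth was 14403.5 UMIs per Sst-dominant control cell, 20954 per Gcg-dominant, 48339.5 per insulin-dominant and 20299 per Ppy-dominant cell. In control Gcg-dominant cells Sst was at 1.40% of its Sst-dominant level, Hhex at 1.44%, Ghsr at 1.58%, Spock3 at 1.75%, Fam159b at 2.43% and Ptprz1 at 0.593%. Arg1 stood higher in those cells, at 10.8%, Rbp4 at 19.2% and Sstr3 at 74.0%. In control insulin-dominant cells Sst was at 0.458%, Hhex at 0.693%, Arg1 at 1.07%, Fam159b at 3.80%, Rbp4 at 4.38% and Sstr3 at 33.8%.

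The near-empty droplets give a scale for the free RNA in these cells. If that RNA supplied all insulin UMIs of the Gcg-dominant cells, it made up 0.638% of their UMIs and would give 102 CPM of Sst, 0.474 CPM of Arg1 and 13.2 CPM of Rbp4. The measured levels there were 1802 CPM of Sst, 84.5 CPM of Arg1 and 1794 CPM of Rbp4. The Sst figure rests on few cells, since the median Gcg-dominant cell had 117 CPM of Sst and the highest 95021 CPM. Arg1 was found in 55.2% of Gcg-dominant cells, 22.8% after thinning, and in 2 of the 39 collagen-marked cells.

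Summed over the 250 Ppy-dominant control cells, Sst stood at 10.1% of the Sst-dominant level and the other genes except Sstr3 at 20.9% to 36.6%. A minority of the cells carried these sums, since the median cell had 195 CPM of Sst and the highest 137364 CPM, and Hhex was found in 39.6% of cells. Many control cells passed both thresholds: 187 passed Sst and Ppy alone and 1 passed Gcg as well. These 188 cells carried the delta-cell genes, as did the 351 control cells with Sst but low Ppy. Hhex was 421 CPM in cells with both hormones (397 to 445) and 445 CPM in those with Sst and low Ppy (428 to 463). Fam159b was 1126 CPM with both hormones and 1002 CPM with low Ppy, and Rbp4 was 10292.5 CPM with both and 8823 CPM with low Ppy. Spock3 was 77.9 CPM with both hormones (68.0 to 88.8) and 60.2 CPM with low Ppy (53.8 to 67.1). The 237 cells with Ppy but low Sst had Hhex at 65.7 CPM, in 26.6% of cells. Whether the cells with both hormones are single cells was not tested. Scrublet, a doublet caller, marked 3 of the 490 Sst-dominant control cells, and its calls were not counted among the 188.

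Cells below the Sst threshold still held Hhex. Control cells with 1% to 5% Sst had Hhex at 263 CPM in 85 of 88 cells, those with 0.1% to 1% at 212 CPM in 41 of 52, and those with a trace under 0.1% at 3.80 CPM. Control cells with no Sst UMI had Hhex at 1.42 CPM in 5 of 161 cells. Isl1CKO cells with 0.1% to 1% Sst had Hhex at 177 CPM in 13 of 13 cells, and those with none at 10.0 CPM in 434 of 2902.

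In insulin-dominant cells, the hormone class that both libraries hold in number, Rbp4 and Fam159b were higher in Isl1CKO. Of the 9 genes 6 had enough UMIs to compare, and 2 were at least 2-fold lower, beside 4.73% of 10080 genes, while 2 were at least 2-fold higher, beside 4.97%. Rbp4 was 1773 CPM in the 383 Isl1CKO cells (1751 to 1794) and 409 CPM in the 898 control cells (403 to 415), a relative log2 ratio of 1.70 (1.67 to 1.73). Fam159b was 124 CPM in Isl1CKO cells (119 to 130) and 39.9 CPM in control cells (38.0 to 41.8), a ratio of 1.23 (1.13 to 1.33). The median gene was 0.41 higher in Isl1CKO insulin-dominant cells on the log2 scale.

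Fam159b was found in 76.2% of the Isl1CKO insulin-dominant cells and 34.6% of the control ones. After thinning to 4000 UMIs it was found in 35.5% of the Isl1CKO cells and 10.9% of the control cells. Computed without hormone UMIs, Fam159b was 274 CPM in Isl1CKO and 128 CPM in control cells, and Rbp4 was 3903 CPM in Isl1CKO and 1316 CPM in control cells. Per total UMIs, Fam159b was 125 CPM in the 145 Isl1CKO insulin-dominant cells with 3 or more Fev UMIs and 124 CPM in the 238 with fewer, and Rbp4 was 1807 CPM in those with Fev and 1752 CPM in those with fewer Fev UMIs. Without hormone UMIs, Fam159b was 236 CPM in the Fev-positive cells and 304 CPM in the others, and Rbp4 was 3418 CPM in the Fev-positive cells and 4280 CPM in the others. Median depth in this class was 38693 UMIs per Isl1CKO cell and 48339.5 per control cell.

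Sst was lower in Isl1CKO insulin-dominant cells, at 7.97 CPM, against 590 CPM in the control ones, a ratio of −6.62. Few cells carry these sums: 1 Isl1CKO cell held 88 of the 117 Sst UMIs, and the median control cell had 60.5 CPM of Sst and the highest 56956 CPM. Arg1 was 1.29 CPM in Isl1CKO cells (19 UMIs) and 8.39 CPM in control cells (359 UMIs), a ratio of −3.11 (−3.86 to −2.45). Hhex, at 2.18 CPM in Isl1CKO and 3.06 CPM in control cells, had a ratio of −0.90 and did not pass. Sstr3, at 15.3 CPM in Isl1CKO and 8.81 CPM in control cells, had a ratio of 0.39 and did not pass. Ghsr had 0 Isl1CKO and 6 control UMIs, Ptprz1 had 9 Isl1CKO and 41 control UMIs, and Spock3 had 6 Isl1CKO and 24 control UMIs, too few to compare. With the estimated free RNA subtracted from the control counts, Sst lay at −6.36 and Arg1 at −3.04. That estimate was made in Gcg-dominant cells. It gives 102 CPM of Sst, above the 60.5 CPM of the median control insulin-dominant cell, so the Sst ratio left after subtraction rests on few cells. Whether the median insulin-dominant cell differs in Sst of its own was not tested. No near-empty Isl1CKO droplets were analysed here, so the Isl1CKO counts were left as they are.

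**Figure D4:**
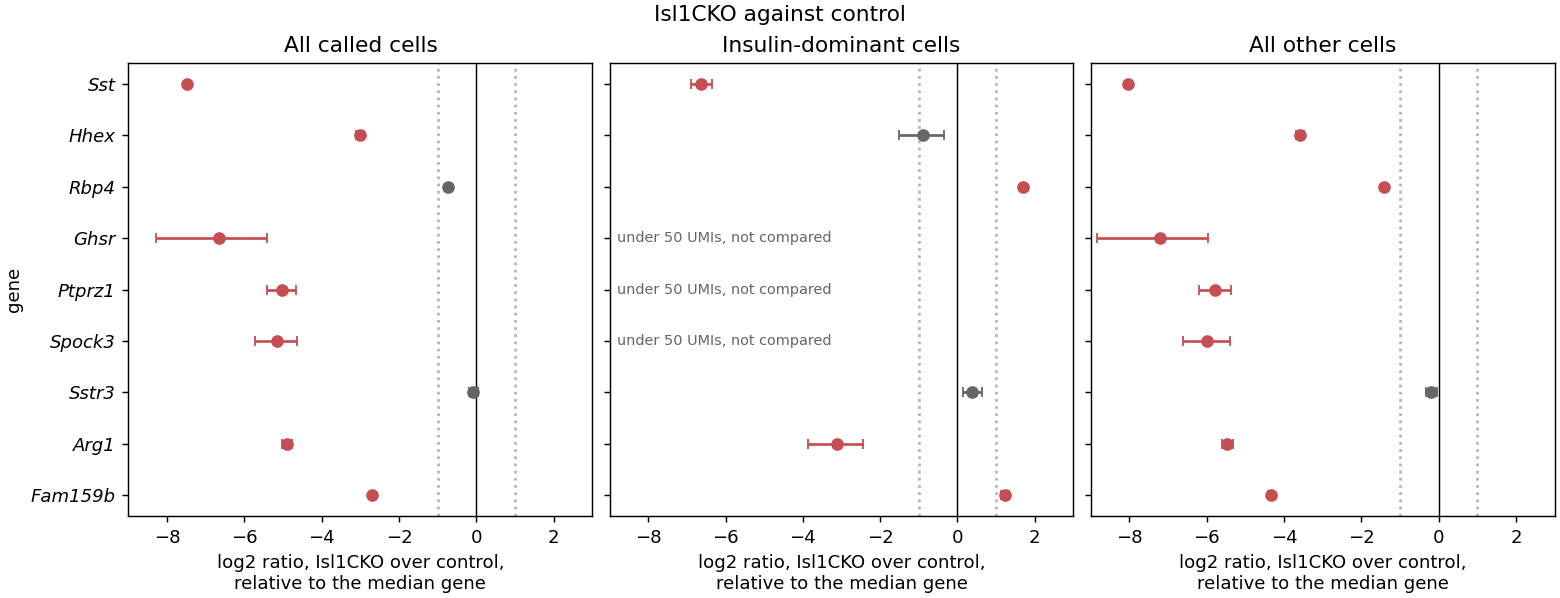
Log2 ratio of each gene (y axis), Isl1CKO over control, relative to the median gene (x axis), in all called cells, insulin-dominant cells and all other cells; bars are exact 95% intervals of counting error, dotted lines a 2-fold ratio, red points past it. Fam159b and Rbp4 lie at 1.23 and 1.70 in insulin-dominant cells and at −4.33 and −1.40 in all other cells.

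Levels across the 9 classes with more than 2 cells ordered the genes in different ways. Sst was highest in control Sst-dominant cells, followed by Isl1CKO Sst-dominant cells, control Ppy-dominant cells (13004 CPM) and control cells without a class (4556 CPM), and no neighbours overlapped. Hhex led in both Sst-dominant classes, which overlap, and then in control cells without a class (124 CPM) and Ppy-dominant cells (118 CPM), which also overlap. Rbp4 was lowest in control insulin-dominant cells, at 409 CPM, while the 3 large Isl1CKO classes lay at 1647 to 2059 CPM. Sstr3 ran from 8.81 CPM in control insulin-dominant cells to 26.1 CPM in control Sst-dominant cells, and from Isl1CKO Fev-positive cells down to Isl1CKO Sst-dominant cells each level overlapped its neighbour.

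Over 8 classes, all but the smallest of the Isl1CKO library, the genes whose log2 levels ran most like Sst were Scg2, which encodes the granule protein secretogranin 2, Slitrk6, Kctd8, Arg1 and Igfbp5, with Pearson r of 0.967 to 0.975 among 11986 genes. Most like Hhex were Fermt1, Lhfpl5, Rtp4, Ngb and Cacna1h, the last a T-type calcium channel gene, with r of 0.987 to 0.996. Among the other members, Ptprz1 had r of 0.961 with Hhex and Sstr3 0.615. The 8 points share 2 libraries, so these values only describe the profiles. Both rankings left out the same kinds of gene as the list of leading genes in Sst-dominant cells.

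Of 15 other genes reported for delta cells, 12 were compared over all called cells. In the Isl1CKO library 3 were at least 2-fold lower, beside 6.82% of all genes, and 0 higher, beside 5.21%, with a median relative log2 ratio of −0.43. The 3 were Pdx1, a homeodomain factor of beta and delta cells, at 46.4 CPM in Isl1CKO and 116 CPM in control cells, the netrin receptor gene Unc5b at 0.909 CPM in Isl1CKO and 2.08 CPM in control cells, and the calcium-sensing receptor gene Casr at 6.07 CPM in Isl1CKO and 8.49 CPM in control cells. Within the control library, 5 of 9 compared were at least 2-fold higher in Sst-dominant than in other cells, beside 5.05% of all genes, and 1 lower, beside 10.7%. The lower one was Nrcam, a neuronal cell adhesion gene, with 2 UMIs in Sst-dominant cells and 194 in the others. Among the higher ones were Crhr2, a urocortin receptor gene, at 9.95 CPM in Sst-dominant cells and 0.568 CPM in the others, and Ffar4, a fatty acid receptor gene, at 189 CPM in Sst-dominant cells and 42.8 CPM in the others. Ffar4 was 70.5 CPM in the Isl1CKO library and 57.8 CPM in the control library, a relative ratio of −0.29.

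The receptor genes for somatostatin differed in direction. Sstr2, the receptor gene of alpha cells, was 18.3 CPM in the Isl1CKO library (17.4 to 19.3) and 4.66 CPM in the control library, a relative log2 ratio of 1.40. Sstr1 was 1.55 CPM in the Isl1CKO library and 2.18 CPM in the control library, a ratio of −1.07. Not taken relative to the median gene, Sstr1 lay at −0.49 and Casr at −0.48, short of a 2-fold ratio. Within the control library Sstr1 was 9.82 CPM in Sst-dominant cells and 1.31 CPM in other cells, and Sstr2 was 1.61 CPM in Sst-dominant cells and 5.01 CPM in other cells. Cort, the paralogue of Sst that encodes cortistatin, had 5 UMIs in the Isl1CKO library and 7 in the control.

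The counts of the other gene lists stand beside 6.82% of all genes at least 2-fold lower and 5.21% at least 2-fold higher, and include the delta-cell genes already given. Islet regulators split over all called cells, with Mnx1, Pdx1, Mafa and Hhex at least 2-fold lower in Isl1CKO and Irx1 and Irx2 at least 2-fold higher. Prosomatostatin handling genes had 2 of 8 lower, the prohormone convertase gene Pcsk1 and Scg2, and 3 higher, Pam, Chga and Chgb. Scg2 was 465 CPM in the Isl1CKO library and 1768 CPM in the control library. Proteoglycan relatives had 4 of 6 lower, Ptprz1, Spock3, Spock2 and Ptn, the last of which encodes the Ptprz1 ligand pleiotrophin. Retinol and retinoid genes had 1 of 4 higher, Ttr, whose product transthyretin carries Rbp4 in plasma, and 0 lower. Urea cycle and polyamine genes had Arg1 lower and Ass1, argininosuccinate synthase, higher among 4 compared. Receptor signalling and release genes had 1 of 9 higher, the potassium channel gene Kcnj3, and the ghrelin system had Ghsr lower and Mboat4, the ghrelin acyltransferase gene, higher among 3.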

How the data were processed

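The authors deposited whole-number UMI counts per gene and barcode, not normalized. Seurat 4.3.0.1, STAR 2.7.3a with STARsolo and the build GRCm38.p6 are listed in the submitters' processing notes, with no roles. The 9 genes and all lists were chosen with earlier results of these data known, and all 9 are named. Listed genes are named where they passed the size rule or a result turns on them, and pattern-like and leading genes by rank. The list of islet regulators is given without its count, since part of it is not reported here.

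Control barcodes counted as cells at 6825 or more UMIs, 1/10 of the 99th percentile of the top 3000, and the Isl1CKO matrix came already filtered. The libraries' cells shared 4 barcode sequences. A cell passing several thresholds took the hormone with the largest share. UMIs were summed per library and class and divided by the class total (CPM). A gene was compared if the group with its higher CPM held 50 or more of its UMIs, relative to the median gene, and called at a ratio of at least 2. No statistical test was run between groups, since each genotype has 1 library. Sums carry exact Poisson, ratios exact conditional binomial and shares exact binomial (Clopper-Pearson) 95% intervals, for counting error only. Log levels used a pseudocount of 1 CPM. The size rule was tested on simulated data. Doublets were kept, and Scrublet in scanpy 1.11.5 marked 8 Isl1CKO cells (0.265%) and 22 control cells (0.879%), so doublets may remain. Gene positions come from GENCODE on GRCm38, where 3 of the 9 identifiers have the version used in the files. No source used here names the annotation behind the counts. Spock3 overlaps small unnamed genes on its strand, so its count is uncertain. Alternatives varied scaling, weighting, cell filters, doublets, several-hormone cells, depth, class thresholds, background, minimum count and size rule. Tools were pandas 2.3.3, scipy 1.17.1, numpy 2.4.6 and matplotlib 3.10.9 in Python 3.11.15.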

Additional observations from a re-analysis of the deposited data

Results flagged for a closer look

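Relative log2 ratios of Isl1CKO over control had opposite signs in insulin-dominant cells and in all other cells for 3 genes, in the 1 library of each genotype, and the difference between the cell groups was not tested. For Rbp4 the ratio was 1.70 in insulin-dominant cells and −1.40 in the others. For Fam159b it was 1.23 in insulin-dominant cells and −4.33 in the others. For Sstr3 it was 0.39 in insulin-dominant cells and −0.19 in the others, both short of a 2-fold ratio. The other cells differ in makeup between the libraries, with 6 Sst-dominant cells in Isl1CKO and 490 in control.

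Control barcodes left out as below the cell threshold also held delta-cell transcripts. Of 872 such barcodes with at least 1000 UMIs, 35 had Sst at 5% or more of their UMIs, and 31 of these had at most 15% mitochondrial UMIs, with a median of 3670 UMIs. Summed over those 31, Sst was 99187 CPM, Hhex 404 CPM, Fam159b 751 CPM, Arg1 660 CPM and Ptprz1 182 CPM. The Isl1CKO matrix holds no barcode below 4882 UMIs, so no such set could be compared.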

How the results depend on the processing

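No paired analysis was possible because each genotype has 1 library. Genes were called at 2-fold, or at 1.5-fold where the size rule was varied. The number called lower in Isl1CKO over all called cells stayed at 7 or 8 under every alternative run. The number called higher in Sst-dominant control cells stayed at 8 or 9. In insulin-dominant cells the number called lower was 1 when cells were thinned to 4000 UMIs, where fewer UMIs are counted, and 2 or 3 otherwise. The Sst-dominant share of control cells was 15.1% without cells that pass several thresholds and 12.8% with hormone thresholds doubled, and 18.4% to 20.5% otherwise; the 18.4% comes from adding control barcodes from 1000 UMIs, chosen after seeing the data. The Isl1CKO share lay between 0.0993% with hormone thresholds doubled and 0.265% with them halved. Of 189 single-gene log2 ratios under alternatives that can move them, 188 kept their direction and 81 left the interval of the reported value; the exception was Sstr3, at 0.49 when not taken relative to the median gene. Class totals limit the precision for Ghsr, Ptprz1 and Spock3, with 5, 64 and 31 UMIs in the Isl1CKO library.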
